A study of Homo sapiens with 9 samples.

Results

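The proteasome genes of Jurkat Clone E6-1 cells were followed through activation. The set comprised every gene whose symbol begins with PSMA to PSMG and a number, which was 50 of the 19569 genes in the mRNA count table. Of these, 48 encode subunits, activators, an inhibitor or assembly chaperones of the proteasome. PSMC3IP, a meiotic recombination factor, and PSME3IP1, a binding partner of the activator PSME3, matched by name only and are kept apart. The set divides into 8 alpha and 7 constitutive beta subunits of the 20S core, 3 immunosubunits, the thymic beta subunit, 17 subunits of the 19S cap, 3 chaperones of the cap, 4 activators, 1 inhibitor and 4 chaperones of the core.

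The 26S proteasome degrades ubiquitin-tagged proteins. Its 20S core is a barrel of stacked alpha and beta rings, and the active sites lie on the beta subunits PSMB5, PSMB6 and PSMB7. In immune cells and under interferon, PSMB8, PSMB9 and PSMB10 can be built into new cores in their place, which gives the immunoproteasome and changes the peptides offered to MHC class I. The 19S cap recognises, unfolds and feeds in ubiquitylated substrates, whereas the PA28 and PA200 activators open the core without needing ubiquitin.

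Jurkat Clone E6-1 is an established human leukaemic T-cell line. The study measured mRNA in 3 libraries of non-activated control cells (0 h), 3 of cells activated for 5 h and 3 of cells activated for 12 h, in work on miRNA repression of translation and RNA degradation. Activation was by plate-bound anti-CD3 (10 µg/mL) with anti-CD28 (5 µg/mL) in the medium, and cells held for 5 h or 12 h without antibody are not among the libraries used here, so activation and time in culture cannot be told apart. The replicates of a time are described as biological, but whether they were separate cultures is not stated, so the p-values reflect library-to-library spread alone, part of which may be technical.

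Library totals ran from 4222258 to 9359187 counts. The shallowest, 12 h replicate 1, also stood apart from its replicates. Chi-square per degree of freedom was 9.39 and 7.80 between it and the others, against 2.95 to 6.23 for every other pair of replicates. Proteasome members took 0.604%, 0.581% and 0.570% of all counts in the 0 h libraries, 0.578%, 0.580% and 0.560% of counts at 5 h, and 0.510%, 0.552% and 0.577% of counts at 12 h. Of 9 T-cell markers 7 were in the table, summing to 4226 to 4890 CPM at 0 h, 4042 to 4516 CPM at 5 h and 3917 to 4422 CPM at 12 h (counts per 1000000, CPM, on TMM-scaled library sizes), while TRAC and TRBC1 were not analysed here. CD3D, CD247 and LCK were not called in any comparison, with CD3D at 1052, 1054 and 1001 CPM. CD3G fell at both times against 0 h (log2 -1.07 and -1.14), CD3E fell at 5 h (-0.35), and CD28 rose at both (0.66 and 0.47). CD4 was low, at 9.96, 2.94 and 2.34 CPM. Of 11 markers of other cell types, EPCAM had no count, and MS4A1, CSF1R, CD14 and NCAM1 were each under 1 CPM on average. The B-cell gene CD79A was an exception, with 177 CPM at 0 h, 101 CPM at 5 h and 142 CPM at 12 h, and the NK gene KLRD1 was higher at 5 h and 12 h than at 0 h. The 11 markers summed to 172 to 213 CPM at 0 h, 107 to 133 CPM at 5 h and 149 to 172 CPM at 12 h, or without CD79A to 10.2 to 10.7, 13.8 to 20.7 and 14.9 to 19.1 CPM. Their part in the proteasome results was not tested. In bulk RNA, fewer cells that express a gene and less RNA per cell cannot be told apart.

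The promoters of the immunosubunits and of PA28 alpha and beta are shown because these genes are known as interferon-inducible. RefSeq promoter windows (GRCh38.p14, 250 bases before to 50 after a start site) existed for 44 of the 50 members, with 55 windows in all. PSMB8 had another window (chr6:32844660-32844929, minus strand), which held 0 matches to the motifs and is not printed. The first 270 bases of 5 windows follow, each 5′ to 3′ on the gene's own strand, with capitals marking matches to the motifs described after them.
PSMB8 (chr6:32844028-32844297, minus strand): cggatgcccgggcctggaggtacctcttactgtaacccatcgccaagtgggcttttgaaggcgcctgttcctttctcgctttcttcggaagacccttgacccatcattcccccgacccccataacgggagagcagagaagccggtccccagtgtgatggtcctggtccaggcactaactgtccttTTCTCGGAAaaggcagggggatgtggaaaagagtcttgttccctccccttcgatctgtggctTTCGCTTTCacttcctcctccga
PSMB9 (chr6:32853942-32854211, plus strand): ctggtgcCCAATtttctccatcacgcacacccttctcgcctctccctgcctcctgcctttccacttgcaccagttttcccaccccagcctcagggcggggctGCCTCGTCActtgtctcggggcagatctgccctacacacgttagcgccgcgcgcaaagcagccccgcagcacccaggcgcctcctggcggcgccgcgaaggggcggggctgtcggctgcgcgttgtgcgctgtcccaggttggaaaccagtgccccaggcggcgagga
PSMB10 (chr16:67936831-67937100, minus strand): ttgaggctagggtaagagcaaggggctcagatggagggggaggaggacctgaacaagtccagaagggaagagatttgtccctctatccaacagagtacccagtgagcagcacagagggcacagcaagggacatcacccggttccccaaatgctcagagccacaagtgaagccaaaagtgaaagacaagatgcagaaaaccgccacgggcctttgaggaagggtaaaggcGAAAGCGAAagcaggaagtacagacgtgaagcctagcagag
PSME1 (chr14:24135944-24136213, plus strand): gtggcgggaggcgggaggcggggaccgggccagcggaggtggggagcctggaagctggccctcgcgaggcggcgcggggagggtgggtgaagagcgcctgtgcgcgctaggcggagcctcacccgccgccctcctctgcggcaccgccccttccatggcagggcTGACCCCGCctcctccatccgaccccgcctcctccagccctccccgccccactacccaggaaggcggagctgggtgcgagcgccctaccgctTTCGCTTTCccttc
PSME2 (chr14:24146591-24146860, minus strand): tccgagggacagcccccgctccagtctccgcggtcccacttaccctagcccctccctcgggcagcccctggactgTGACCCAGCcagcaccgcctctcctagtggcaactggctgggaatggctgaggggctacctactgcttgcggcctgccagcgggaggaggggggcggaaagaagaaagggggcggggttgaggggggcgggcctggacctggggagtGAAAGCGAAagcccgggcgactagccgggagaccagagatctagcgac

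Both strands of each window were searched for 5 short motifs. The core of the interferon-stimulated response element, GAAANNGAA, was in 8.11% of all 35116 human promoter windows and in 14.5% of the 55 member windows. It occurred in 8 members, which were PSMA4, PSMB4, PSMB8, PSMB10, PSMC2, PSME1, PSME2 and PSMG4. In PSMB8, PSMB10, PSME1, PSME2 and PSMG4 the match had the same 9 letters, GAAAGCGAA on one strand, which read TTCGCTTTC on the other. Counted to its leftmost base, it stood at -3 in PSMB8, -21 in PSMB10, 7 in PSME1, -28 in PSME2 and -33 in PSMG4. The PSMB9 window held no match to it, and instead held CCAAT at -243 and an antioxidant response element, TGACNNNGC, at -148. That element was in 27.3% of member windows and 13.3% of all windows, and CCAAT in 43.6% and 34.6%. The gamma-activated sequence motif TTCNNNGAA was in 14.5% of member windows, PSMB8 among them, and in 7.66% of all windows. The kappaB motif GGANTTTCC was in 1.82% of member windows, which was PSMD2, and in 1.64% of all. The PSMB9 start of this RefSeq window lies 488 bases from the nearer of a pair of RefSeq starts of the peptide transporter gene TAP1 and 1431 bases from the other, on the opposite strand. In GENCODE release 29 the PSMB9 gene begins farther upstream, its start 9842 bases from that of TAP1, and its span includes TAP1. A match describes letters in these windows and does not show binding.

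Proteasome genes were called in both directions and most were not called. At 5 h against 0 h, 9 of the 49 tested members were called higher and 9 lower (edgeR adjusted p under 0.05 over 12036 genes), and 24.9% of all tested genes were called higher and 24.8% lower. In the 12 h libraries against 0 h, 10 members were higher and 8 lower, beside 26.3% and 24.8% of all genes. Between 12 h and 5 h, 6 were higher and 10 lower, beside 18.1% and 18% of all genes. Members called in either direction made up 36.7%, 36.7% and 32.7% of those tested in these 3 comparisons, against 49.7%, 51.1% and 36.1% of all genes. The 12 h against 5 h count of higher members rested on single libraries, with 3 without 12 h replicate 2 and 11 without 12 h replicate 1. Scaled by library totals alone, 6 members were higher and 15 lower at 12 h against 0 h, where that scaling also moved the median of all genes by -0.11. The comparisons share libraries and are not independent of each other.

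The changes were also small. The median size of the log2 fold change over members was 0.17 at 5 h against 0 h, 0.18 at 12 h against 0 h and 0.19 at 12 h against 5 h, beside 0.35, 0.36 and 0.27 over all genes. A difference beyond 1.5-fold was seen for 8.16%, 8.16% and 6.12% of members, beside 28.5%, 29.7% and 17.8% of all genes. The members beyond 1.5-fold were PSME4, PSMD5, PSMG3 and PSMC3IP at 5 h, and PSMB9, PSME4, PSMG1 and PSMA8 at 12 h, all against 0 h. The signed median over members was 0.07, -0.00 and -0.03 in the 3 comparisons. The summed level of the 15 constitutive core subunits was 2163 ± 92.0 CPM at 0 h, 2249 ± 95.0 CPM at 5 h and 2158 ± 128 CPM at 12 h (SD, n = 3). That of the 17 cap subunits was 2096 ± 82.9, 2241 ± 17.1 and 2081 ± 135 CPM at the same times. The higher means at 5 h against 0 h depended on the scaling: with library totals alone the core sum was 2281, 2180 and 2110.4 CPM and the cap sum 2211, 2172 and 2036 CPM at 0 h, 5 h and 12 h, lower at 5 h than at 0 h.

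**Figure D1:**
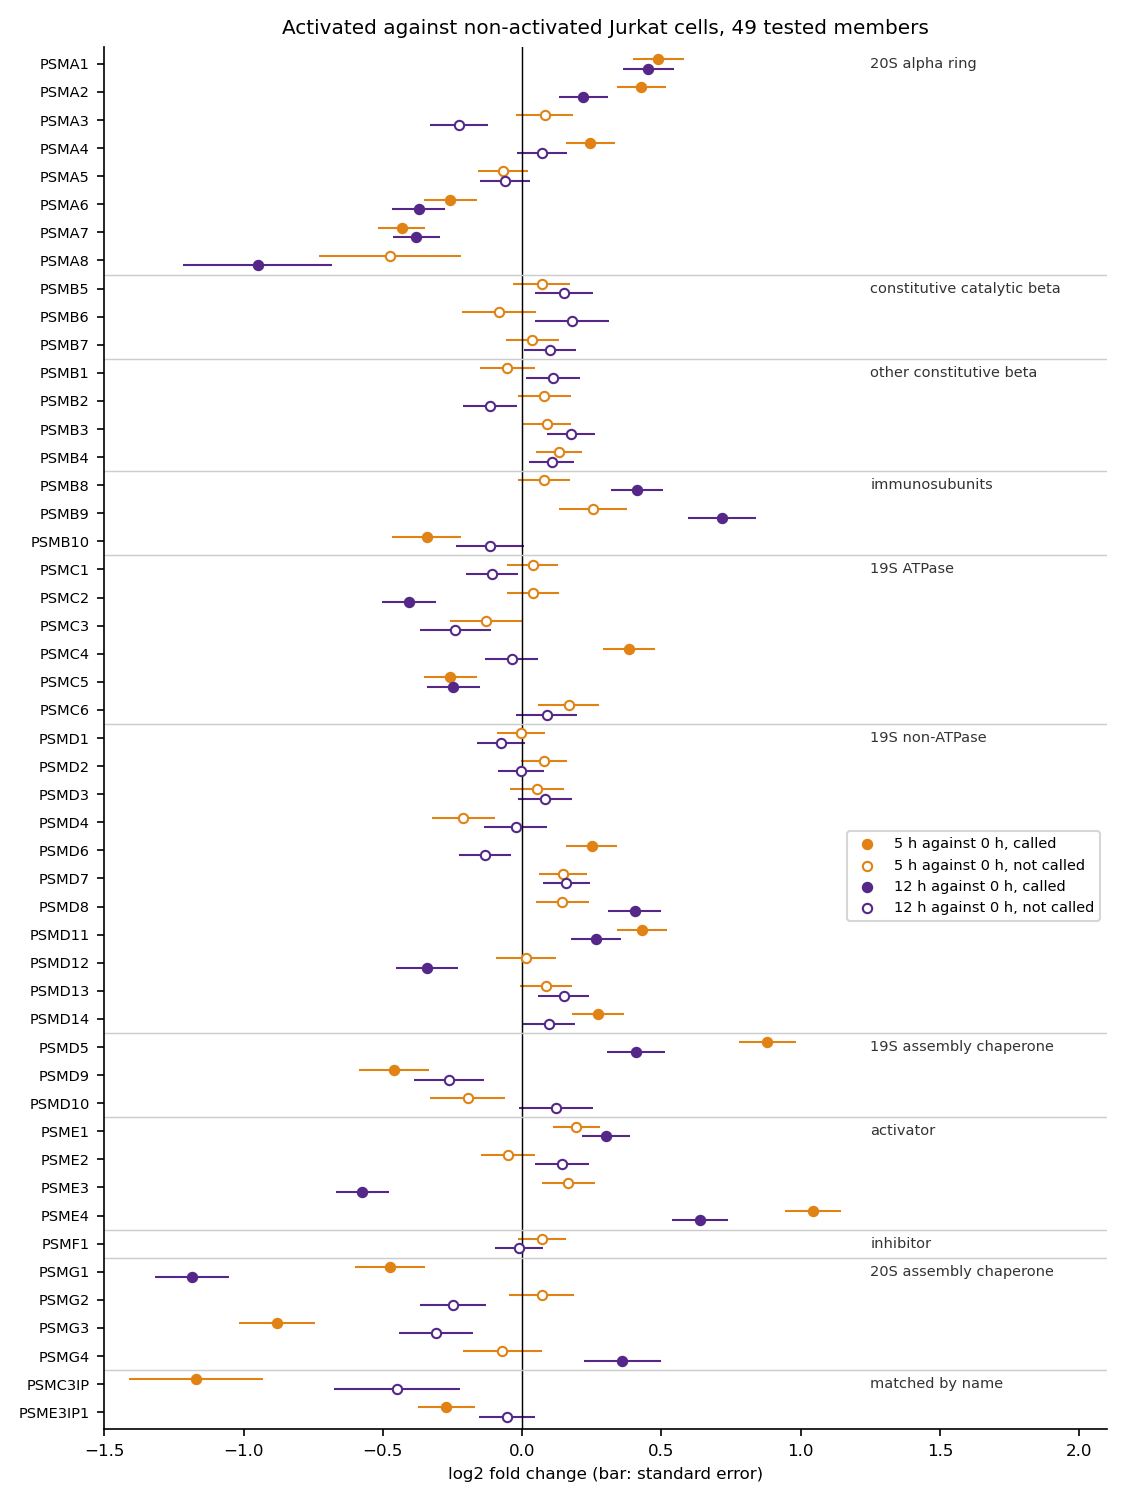
Log2 fold change of the 49 tested members (rows, in their classes) at 5 h and at 12 h against 0 h, with standard errors; filled points passed the edgeR test. The 7 constitutive beta subunits all lie near 0 with open points, PSME4 and PSMD5 lie farthest right at 5 h, PSMB9 at 12 h, and PSMG1 farthest left at 12 h.

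Of the immunosubunits, PSMB9 and PSMB8 rose by 12 h against 0 h and PSMB10 was not called there. PSMB9 was 1.64-fold and PSMB8 1.33-fold of its 0 h level at 12 h, and neither passed the test at 5 h. PSMB10 fell at 5 h to 0.788 of its 0 h level. At 12 h the class had 2 members higher, 0 lower and 1 not called, against 0 h (66.7% called, beside 51.1% of all genes). Its median log2 fold change was 0.41, beside a median of -0.00 over all genes.

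PSMB9 (chromosome 6, 32844136 to 32859585, plus strand, GENCODE release 29, GRCh38) encodes the immunosubunit that takes the place of PSMB6. Its level was 32.5, 26.6 and 34.9 CPM in the 0 h libraries, 37.7, 38.8 and 35.9 CPM at 5 h and 44.4, 54.2 and 55.2 CPM at 12 h. Every 12 h library lay above every earlier library, and the 5 h libraries lay just above the 0 h ones. The rise at 12 h against 0 h passed the test (log2 fold change 0.72 ± 0.12 SE, edgeR adjusted p = 4.87e-05), as did that at 12 h against 5 h (log2 0.46 ± 0.12 SE, adjusted p = 0.00511 by edgeR). At 5 h against 0 h the difference did not pass (log2 0.25 ± 0.12 SE, adjusted p = 0.0913 by edgeR).

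PSMB8 (chromosome 6, 32840717 to 32844703, minus strand) takes the place of PSMB5. It had 122, 100.5 and 121 CPM at 0 h, 117, 123 and 122 CPM at 5 h and 139.6, 163 and 154 CPM at 12 h. The 0 h and 5 h libraries overlapped, and all 12 h libraries were higher than both. The rise was 0.41 ± 0.09 SE on the log2 scale at 12 h against 0 h (edgeR adjusted p = 0.000982) and 0.34 ± 0.09 at 12 h against 5 h (edgeR adjusted p = 0.00874). The annotated exons of PSMB8 and PSMB9 overlap on opposite strands, together with the antisense gene PSMB8-AS1. Whether counting used strand is not given in the sources used here, so reads from the shared stretch cannot be told apart.

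PSMB10 (chromosome 16, 67934502 to 67937087, minus strand) takes the place of PSMB7. It had 54.7, 58.6 and 60.4 CPM at 0 h, 39.4, 50.8 and 46.5 CPM at 5 h and 42.5, 56.3 and 59.8 CPM at 12 h. The 5 h libraries all lay below the 0 h ones, whereas the 12 h libraries spanned both. The fall at 5 h against 0 h was called (log2 fold change -0.34 ± 0.12 SE, edgeR adjusted p = 0.0246), but was no longer called without 0 h replicate 2 (-0.34, adjusted p = 0.0548), 0 h replicate 3 (-0.31, 0.0801), 5 h replicate 1 (-0.25, 0.128) or 5 h replicate 3 (-0.36, 0.0526). At 12 h it stood at log2 -0.11 ± 0.12 SE against 0 h (edgeR adjusted p = 0.446). Its difference between 12 h and 5 h was 0.23 (edgeR adjusted p = 0.158), and without 12 h replicate 1 it was 0.34 and called (0.0273).

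The constitutive catalytic subunits were not called in any comparison. PSMB5, which carries the chymotrypsin-like site, had 38.9, 39.5 and 41.2 CPM at 0 h, 42.6, 43.0 and 40.0 CPM at 5 h and 40.5, 44.9 and 46.6 CPM at 12 h. Its libraries overlapped between all times, with log2 0.07 ± 0.10 SE at 5 h and 0.15 ± 0.10 at 12 h against 0 h. PSMB6, the caspase-like subunit, had 80.4, 72.6 and 71.8 CPM at 0 h, 60.7, 78.8 and 72.7 CPM at 5 h and 61.3, 96.4 and 93.6 CPM at 12 h. Its 12 h value rested on 1 library: the first 12 h replicate was the lowest but 1 of all 9, and the other two were the highest. Without it, PSMB6 was called higher at 12 h against 0 h (log2 0.34, edgeR adjusted p = 0.0144) and against 5 h (0.42, 0.00524). PSMB7, the trypsin-like subunit, had 147, 128 and 137 CPM at 0 h, 141, 141 and 141 CPM at 5 h and 125, 159.8 and 154 CPM at 12 h. Its log2 fold changes were 0.04 ± 0.09 SE at 5 h and 0.10 ± 0.10 at 12 h against 0 h.

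**Figure D2:**
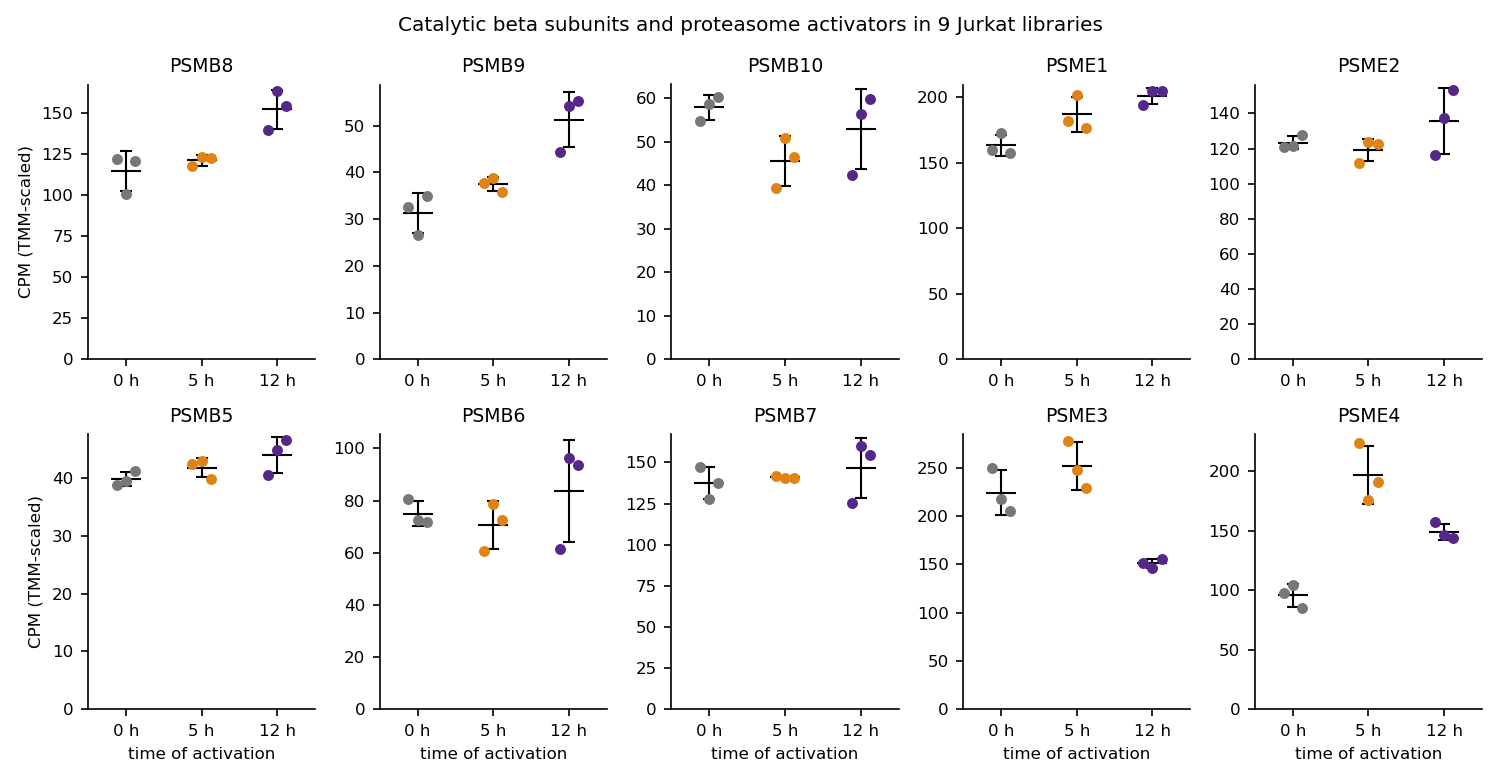
Level in CPM (TMM-scaled) of the immunosubunits, their constitutive counterparts and the activators against time of activation; each point is a library, and bars give the mean ± SD of 3. PSMB8 and PSMB9 are highest at 12 h, PSME3 is lowest at 12 h, and PSME4 is highest at 5 h.

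Setting each immunosubunit against its counterpart within a library needs no scaling between libraries. The number of PSMB8 counts per PSMB5 count was 3.14, 2.55 and 2.93 before activation (0 h), 2.76, 2.87 and 3.06 after 5 h and 3.45, 3.63 and 3.30 after 12 h. All 12 h libraries were above all others, by 0.27 on the log2 scale against 0 h and 0.26 against 5 h. For PSMB9 per PSMB6 the ratio was 0.404, 0.366 and 0.486 before activation (0 h), 0.621, 0.492 and 0.494 after 5 h and 0.725, 0.562 and 0.590 after 12 h. The 0 h libraries lay below all others, with log2 differences of 0.36 at 5 h and 0.58 at 12 h against 0 h, and the 5 h and 12 h libraries overlapped. For PSMB10 per PSMB7 it was 0.372, 0.459 and 0.439 before activation (0 h), 0.278, 0.361 and 0.331 after 5 h and 0.339, 0.352 and 0.387 after 12 h. Here the 5 h libraries lay below the 0 h libraries, by a log2 difference of -0.39, and the 12 h libraries overlapped both. In a two-sided exact permutation test, 3 libraries against 3 cannot give a p below 0.1. That p of 0.1 was reached by each ratio difference without overlap, and became 0.171 after adjustment over the 12 tests of 4 ratios, so none passed at 0.05.

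**Figure D3:**
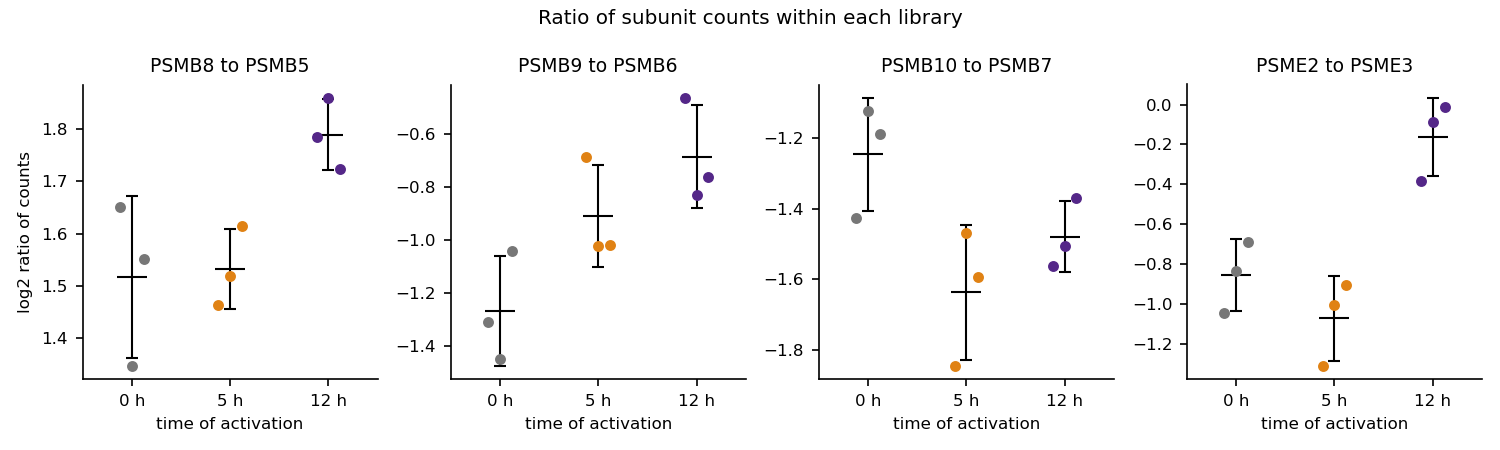
Log2 ratio of counts of 2 subunits within each library against time of activation; points are libraries and bars the mean ± SD of 3. The PSMB8 to PSMB5 and PSME2 to PSME3 ratios are highest at 12 h, PSMB9 to PSMB6 is lowest at 0 h, and PSMB10 to PSMB7 is highest at 0 h on average.

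At 12 h against 0 h, 2 of the 4 activators rose, 1 fell and 1 was not called (75% called, beside 51.1% of all genes). PSME4 (PA200), a large single-chain nuclear cap linked to histone turnover, had 97.8, 104 and 85.3 CPM at 0 h, 224, 176 and 191 CPM at 5 h and 157, 146 and 144 CPM at 12 h. The 3 times did not overlap. It rose 2.06-fold at 5 h against 0 h (log2 fold change 1.04 ± 0.10 SE, edgeR adjusted p = 3.5e-08), the largest rise among the members. At 12 h it was 1.56-fold of 0 h (log2 0.64 ± 0.10 SE, adjusted p = 2.69e-05 by edgeR) and lower than at 5 h (log2 -0.40 ± 0.10 SE, adjusted p = 0.00354 by edgeR).

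PSME3 (PA28 gamma), a nuclear homoheptamer, had 250.2, 217 and 206 CPM at 0 h, 278, 248 and 229 CPM at 5 h and 152, 146 and 155 CPM at 12 h. The 0 h and 5 h libraries overlapped and the 12 h libraries were all lower. The fall to 0.672 of the 0 h level at 12 h was called (log2 fold change -0.57 ± 0.10 SE, edgeR adjusted p = 4.75e-05), as was that against 5 h (log2 -0.74 ± 0.10 SE, adjusted p = 6.99e-06 by edgeR). At 5 h against 0 h the log2 difference of 0.17 ± 0.09 SE did not pass.

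PSME1 and PSME2 (PA28 alpha and beta) form a shared ring that interferon induces and that promotes class I peptide production. PSME1 had 160.2, 173 and 158 CPM at 0 h, 182, 202 and 177 CPM at 5 h and 194, 205 and 205 CPM at 12 h, with no overlap between 0 h and the later times. It was called higher at 12 h against 0 h (log2 fold change 0.30 ± 0.09 SE, edgeR adjusted p = 0.00574) but not at 5 h (0.19, adjusted p = 0.0633). Fitted on only the 6 libraries compared, the 5 h difference was called (0.19, edgeR adjusted p = 0.0495). With library totals in place of TMM scaling the 12 h value was 0.19 and no longer called (0.0668). PSME2 had 121, 122 and 128 CPM at 0 h, 112, 124 and 122 CPM at 5 h and 116, 137 and 154 CPM at 12 h, and its groups overlapped throughout. No comparison of PSME2 was called, although without 12 h replicate 1 it was higher at 12 h against 0 h (log2 0.23, edgeR adjusted p = 0.0422) and against 5 h (0.28, 0.0208). The number of PSME2 counts per PSME3 count was 0.484, 0.560 and 0.621 before activation (0 h), 0.403, 0.498 and 0.534 after 5 h and 0.767, 0.940 and 0.990 after 12 h. The 12 h libraries were above all others, by 1.88-fold over 5 h and 1.62-fold over 0 h (two-sided exact permutation p = 0.1 each, the smallest possible, adjusted 0.171).

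PSMF1 (PI31), which inhibits the isolated core, was called in no comparison. Its libraries spanned 104 to 114 CPM at 0 h, 108 to 123 CPM at 5 h and 104 to 110.3 CPM at 12 h.

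Within the alpha ring, which gates the core, members moved in opposite directions. At 5 h against 0 h, 3 of 8 rose and 2 fell, and at 12 h 2 rose and 3 fell, so that 62.5% were called at each time beside 49.7% and 51.1% of all genes. PSMA1 had 186, 179.7 and 165 CPM at 0 h, 276, 239 and 228 CPM at 5 h and 249.9, 228 and 248 CPM at 12 h, so that every activated library was above every 0 h library. Its rise was 0.49 ± 0.09 SE on the log2 scale at 5 h (edgeR adjusted p = 0.000167) and 0.45 ± 0.09 at 12 h (edgeR adjusted p = 0.000345), both against 0 h. PSMA2 also rose at both times (log2 0.43 and 0.22), and PSMA4 at 5 h (0.24). The 12 h call of PSMA2 (edgeR adjusted p = 0.0407) was lost with library totals alone (0.11, 0.292), with no filter (0.22, 0.0705), on only the 6 libraries compared (0.22, 0.0673), and without any 1 of 7 libraries, which were all except 5 h replicate 1 and 12 h replicate 2 (0.17 to 0.25, 0.0536 to 0.128). That of PSMA4 at 5 h was lost with library totals alone (0.12, edgeR adjusted p = 0.254) and without 0 h replicate 2 (0.20, 0.127), 5 h replicate 1 (0.23, 0.0799) or 5 h replicate 3 (0.23, 0.0803). PSMA7 fell at both times (log2 -0.43 and -0.38), with 186, 186 and 189 CPM at 0 h, 125, 145 and 145 CPM at 5 h and 143, 142 and 145 CPM at 12 h and no overlap with 0 h. PSMA6 fell at both times as well (log2 -0.26 and -0.37), the 5 h call being lost without 0 h replicate 1 (-0.23, edgeR adjusted p = 0.085), 0 h replicate 2 (-0.28, 0.0517) or 5 h replicate 3 (-0.18, 0.176). PSMA3 was called only at 12 h against 5 h, where it was lower (-0.31). That call was lost without 5 h replicate 1 (-0.28, edgeR adjusted p = 0.0765), 5 h replicate 2 (-0.29, 0.0792), 12 h replicate 1 (-0.27, 0.0615) or 12 h replicate 2 (-0.23, 0.136), and against 0 h its 12 h value was called with library totals alone (-0.33, 0.00979) or without 12 h replicate 3 (-0.35, 0.00963). PSMA5 was not called in any comparison.

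PSMA8, the testis-specific relative of PSMA7, was low, at 11.1, 8.07 and 7.32 CPM at 0 h, 4.81, 6.89 and 7.36 CPM at 5 h and 2.93, 3.93 and 6.52 CPM at 12 h. The 12 h libraries lay below the 0 h libraries and overlapped those of 5 h, and the fall at 12 h against 0 h was called (log2 fold change -0.95 ± 0.27 SE, edgeR adjusted p = 0.00566). Between 12 h and 5 h it was not called (-0.47) but was without 12 h replicate 3 (-0.83, edgeR adjusted p = 0.0466).

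The remaining constitutive beta subunits, PSMB1 to PSMB4, line the inner rings without active sites of their own. None was called in any comparison, as with PSMB5 to PSMB7, so that 0 of 7 constitutive beta subunits passed. Of all genes, 49.7% were called at 5 h and 51.1% at 12 h against 0 h, and 36.1% at 12 h against 5 h. At an unadjusted edgeR p under 0.05 the count of these 7 subunits was also 0 in each comparison. Their log2 fold changes ran from -0.08 to 0.13 at 5 h and from -0.12 to 0.18 at 12 h against 0 h. PSMB4 had 161, 160.1 and 157 CPM at 0 h, 178, 182 and 164 CPM at 5 h and 173, 170.3 and 171 CPM at 12 h. Both later times lay above 0 h, by log2 0.13 ± 0.08 SE and 0.11 ± 0.08 (edgeR adjusted p = 0.185 and 0.291). Of PSMB1 to PSMB4, PSMB2 had the lowest and PSMB3 the highest change at 12 h, at log2 -0.12 ± 0.10 SE and 0.18 ± 0.09, and PSMB3 was called without 12 h replicate 1 (0.23, edgeR adjusted p = 0.032). PSMB11, the thymic subunit of cortical epithelium, had 1 count at 0 h and none at 5 h or 12 h. A count of 0 allows up to 3 counts, or 0.142 CPM over the 5 h libraries and 0.147 CPM over the 12 h libraries, which covers counting error only.

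In the 19S cap, the ATPase ring unfolds substrates and threads them into the core. Of its 6 members, 1 rose and 1 fell at 5 h, and 2 fell at 12 h, against 0 h, or 33.3% called at each time beside 49.7% and 51.1% of all genes. PSMC4 had 119, 113 and 114 CPM at 0 h, 149, 146 and 156 CPM at 5 h and 95.4, 116 and 123 CPM at 12 h. Its 5 h libraries stood above all others, and it rose at 5 h against 0 h (log2 fold change 0.38 ± 0.09 SE, edgeR adjusted p = 0.00191) and was lower again at 12 h against 5 h (log2 -0.42 ± 0.09 SE, adjusted p = 0.00171 by edgeR). PSMC2 had 138, 129 and 117 CPM at 0 h, 133, 136 and 124 CPM at 5 h and 87.4, 94.1 and 107 CPM at 12 h. All its 12 h libraries were lower than the rest, with log2 fold changes of -0.41 against 0 h and -0.44 against 5 h (edgeR adjusted p = 0.00138 and 0.00126). PSMC5 fell at both times against 0 h (log2 -0.26 and -0.25). The 5 h call was lost without 0 h replicate 1, 0 h replicate 3 or any 1 of the 5 h libraries (-0.21 to -0.28, edgeR adjusted p = 0.0531 to 0.108). Its 12 h call was lost on only the 6 libraries compared (-0.25, edgeR adjusted p = 0.0527) and without 0 h replicate 1, 0 h replicate 3, 5 h replicate 3, 12 h replicate 1 or 12 h replicate 2 (-0.19 to -0.26, 0.0528 to 0.148). PSMC6, with the highest fold change of the ring at 12 h against 0 h, was not called (log2 0.09 ± 0.11 SE), nor were PSMC1 and PSMC3.

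The non-ATPase subunits hold the ubiquitin receptors and the lid. Of these 11, 3 rose and 0 fell at 5 h, and 2 rose and 1 fell at 12 h, against 0 h. Called in either direction were 27.3% at each time, beside 49.7% and 51.1% of all genes, and the share that rose at 5 h was near the 24.9% of all genes that did. PSMD11, a lid scaffold, had 171, 149 and 139 CPM at 0 h, 207, 201 and 211 CPM at 5 h and 181, 176 and 194 CPM at 12 h, with no overlap between times. It rose at 5 h against 0 h (log2 fold change 0.43 ± 0.09 SE, edgeR adjusted p = 0.000463). At 12 h against 0 h its rise of 0.26 (edgeR adjusted p = 0.0187) was lost with library totals alone (0.16, 0.149) and without 0 h replicate 2 (0.25, 0.0699), 0 h replicate 3 (0.20, 0.106) or 12 h replicate 3 (0.22, 0.0786). PSMD6 and PSMD14 also rose at 5 h (log2 0.25 and 0.27), and PSMD6 was lower at 12 h than at 5 h (-0.38, edgeR adjusted p = 0.00358). With library totals alone neither 5 h call held (0.13, edgeR adjusted p = 0.264, for PSMD6 and 0.15, 0.192, for PSMD14). The PSMD6 call was also lost without any 1 of the 0 h libraries, 5 h replicate 1 or 5 h replicate 2 (0.20 to 0.26, 0.0611 to 0.126), and that of PSMD14 without 0 h replicate 3 (0.21, 0.108) or 5 h replicate 1 (0.21, 0.118). PSMD14 is the deubiquitinase that removes ubiquitin chains from substrates during degradation.

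PSMD8, another lid subunit, had 120.3, 105 and 125 CPM at 0 h, 126, 127 and 134 CPM at 5 h and 136, 168 and 158 CPM at 12 h. The times did not overlap, and its rise at 12 h against 0 h was called (log2 fold change 0.40 ± 0.10 SE, edgeR adjusted p = 0.0014). That at 12 h against 5 h (0.26, edgeR adjusted p = 0.0385) was lost by limma-trend (0.25, 0.0518) and without 12 h replicate 2 (0.19, 0.167), 12 h replicate 3 (0.25, 0.0863) or any of 5 h replicates 1 to 3 (0.24 to 0.29, 0.0628 to 0.106). PSMD12 had 86.3, 81.2 and 69.2 CPM at 0 h, 90.1, 72.6 and 76.5 CPM at 5 h and 63.2, 56.6 and 67.4 CPM at 12 h, with the 12 h libraries the lowest. Its log2 fold changes of -0.34 against 0 h and -0.36 against 5 h were called (edgeR adjusted p = 0.0135 and 0.0163). The first was lost without 0 h replicate 1 (-0.27, 0.0775) or 12 h replicate 2 (-0.27, 0.0753), the second without 12 h replicate 2 (-0.28, 0.094) or 5 h replicate 1 (-0.26, 0.106). PSMD1, PSMD2, PSMD3, PSMD4, PSMD7 and PSMD13, among them the scaffold and receptor subunits of the base, were not called in any comparison. Their log2 fold changes against 0 h lay between -0.21 and 0.16.

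Assembly chaperones are not part of the finished particle. Over the 7 chaperones of cap and core together, fold changes against 0 h ran from log2 -0.88 to 0.88 at 5 h and -1.19 to 0.41 at 12 h. Those of the cap alone ran from -0.26 to 0.41 at 12 h, a narrower range than the -0.95 to 0.45 of the alpha ring. These ranges cover 3 and 8 genes. The value of -0.95 was that of PSMA8, which had few counts, and the next lowest alpha subunit was PSMA7 at -0.38. Of the 3 chaperones of the cap base, 1 rose and 1 fell at 5 h against 0 h (66.7% called, beside 49.7% of all genes). PSMD5, which also restrains assembly of the finished proteasome, had 52.3, 52.0 and 46.8 CPM at 0 h, 107, 83.5 and 88.1 CPM at 5 h and 66.1, 66.7 and 67.5 CPM at 12 h. No times overlapped. It rose 1.84-fold at 5 h (log2 fold change 0.88 ± 0.10 SE, edgeR adjusted p = 4.73e-07) and was 1.33-fold of 0 h at 12 h (log2 0.41 ± 0.10 SE, adjusted p = 0.00274 by edgeR), below its 5 h level (log2 -0.47 ± 0.10 SE, adjusted p = 0.00123 by edgeR). PSMD9 had 25.8, 27.2 and 29.6 CPM at 0 h, 20.6, 20.5 and 18.96 CPM at 5 h and 20.01, 22.8 and 25.6 CPM at 12 h, and both later times lay below 0 h. Its fall was called at 5 h (log2 -0.46 ± 0.13 SE, edgeR adjusted p = 0.00492) and not at 12 h (-0.26, 0.0885), where it was called with library totals alone (-0.37, 0.0187) or without 12 h replicate 3 (-0.35, 0.0489). PSMD10 (gankyrin) was not called in any comparison.

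PSMG1 to PSMG4 work as a pair of heterodimers, PSMG1 with PSMG2 and PSMG3 with PSMG4, that help build the alpha ring. At 12 h against 0 h, 1 of the 4 rose and 1 fell, or 50% called, which is near the 51.1% of all genes. PSMG1 had 37.7, 35.6 and 33.2 CPM at 0 h, 25.6, 26.5 and 24.4 CPM at 5 h and 19.3, 13.8 and 14.8 CPM at 12 h, with no overlap between any times. It fell at 5 h against 0 h (log2 fold change -0.48 ± 0.12 SE, edgeR adjusted p = 0.00349) and by 12 h was at 0.440 of its 0 h level (log2 -1.19 ± 0.13 SE, adjusted p = 3.38e-07 by edgeR). Its partner PSMG2 was called only at 12 h against 5 h, where it was lower (-0.32, edgeR adjusted p = 0.0414), and stood at log2 -0.25 ± 0.12 SE at 12 h against 0 h (adjusted p = 0.0852). The PSMG2 call at 12 h against 5 h was lost with DESeq2 (-0.32, adjusted p = 0.0572), limma on the deposited log2 values (-0.31, 0.0519), library totals alone (-0.30, 0.05) and only the 6 libraries compared (-0.31, 0.0543). It was also lost without any 1 of 7 libraries, which were all except 0 h replicate 3 and 12 h replicate 1 (-0.21 to -0.36, edgeR adjusted p = 0.0517 to 0.235). Against 0 h its 12 h value was called with library totals alone (-0.36, edgeR adjusted p = 0.0151) and without 0 h replicate 3 (-0.34, 0.0353) or 12 h replicate 1 (-0.32, 0.0383). The difference between partners was not tested.

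PSMG3 had 46.8, 48.7 and 59.0 CPM at 0 h, 22.9, 30.7 and 30.4 CPM at 5 h and 34.9, 47.3 and 41.0 CPM at 12 h. The 5 h libraries were the lowest of all, and the 0 h and 12 h libraries overlapped. It fell to 0.543 of its 0 h level at 5 h (log2 fold change -0.88 ± 0.14 SE, edgeR adjusted p = 2.14e-05) and was higher at 12 h than at 5 h (log2 0.57 ± 0.14 SE, adjusted p = 0.0036 by edgeR). At 12 h against 0 h it was not called (-0.31, adjusted p = 0.058) but was called by 8 other fits, at -0.31 to -0.43, among them those without 0 h replicate 1 (-0.37, 0.0447), 12 h replicate 2 (-0.43, 0.0196) or 5 h replicate 1 (-0.31, 0.0368). PSMG4 had 23.4, 23.8 and 31.5 CPM at 0 h, 28.3, 25.1 and 21.6 CPM at 5 h and 34.7, 36.0 and 30.5 CPM at 12 h, and its 12 h libraries overlapped those of 0 h. It was called higher at 12 h against 0 h (0.36, edgeR adjusted p = 0.0348) and against 5 h (0.43, 0.0212). The first call was lost with library totals alone (0.25, 0.13) and without 0 h replicate 1 (0.28, 0.138), 0 h replicate 2 (0.30, 0.125), 12 h replicate 1 (0.34, 0.0657) or 12 h replicate 2 (0.30, 0.122), and the second without 12 h replicate 2 (0.37, 0.0852) or 5 h replicate 3 (0.34, 0.107). The annotation places other genes on the opposite strand over exons of PSMG4, of PSMG3 and of the activators PSME1 to PSME4, so the same limit on strand applies to them. It also does so for PSMA2, PSMC1, PSMC5, PSMC3IP, PSMD1, PSMD6, PSMD7, PSMD9, PSMD11, PSMD13, PSMD14, PSMG2 and PSME3IP1. Genes on the same strand overlap exons of PSMA1, PSMA2, PSMA6, PSMB9, PSMB10, PSMD9, PSME2 and PSMF1, where a strand setting would not separate the reads.

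**Figure D4:**
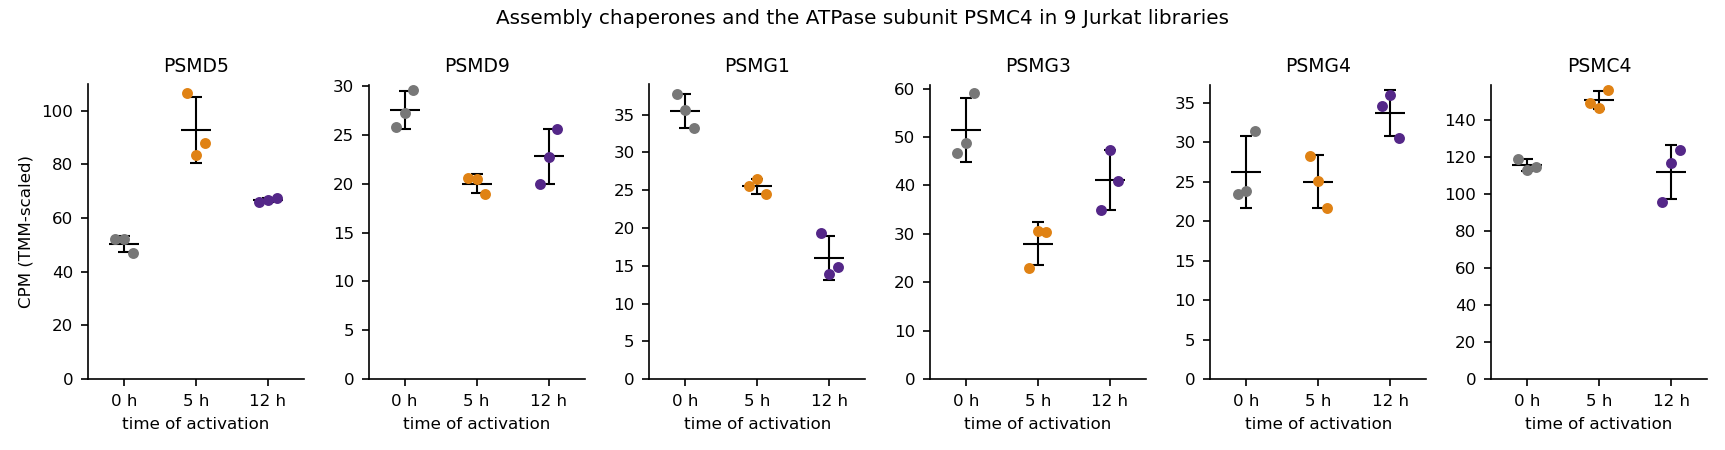
Level in CPM (TMM-scaled) of 5 assembly chaperones and of the ATPase PSMC4 against time of activation; points are libraries and bars the mean ± SD of 3. PSMD5 and PSMC4 are highest at 5 h, PSMG3 is lowest at 5 h, and PSMG1 is lower at each later time.

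PSMC3IP had 14.8, 8.52 and 15.5 CPM at 0 h, 4.51, 5.54 and 7.36 CPM at 5 h and 7.08, 11.2 and 9.48 CPM at 12 h. Its 5 h libraries lay below those of 0 h, and the fall to 0.444 was called (log2 fold change -1.17 ± 0.24 SE, edgeR adjusted p = 0.000411). At 12 h against 5 h it was higher (0.72, edgeR adjusted p = 0.0313), which was lost without 12 h replicate 2 (0.55, 0.175), 12 h replicate 3 (0.73, 0.0635), 5 h replicate 1 (0.57, 0.119) or 5 h replicate 2 (0.69, 0.0775). At 12 h against 0 h it was not called (-0.45, 0.101), but it was without 0 h replicate 2 (-0.67, 0.015), with library totals alone (-0.56, 0.0446) and with no filter (-0.45, 0.0439). PSME3IP1 was lower at 5 h against 0 h (-0.27, edgeR adjusted p = 0.0312), with overlapping libraries, and the call was lost without 0 h replicate 1 (-0.25, 0.0852), 0 h replicate 3 (-0.23, 0.109), 5 h replicate 1 (-0.19, 0.163) or 5 h replicate 2 (-0.30, 0.0509).

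Levels were also set between genes, as CPM per kilobase of the longest principal transcript in GENCODE. These are approximate, since the isoforms used and the spread of reads along them are not known. At 0 h the highest members were PSMA6 at 284 ± 12.8, PSME3 at 225 ± 23.2 and PSMA7 at 188 ± 2.24 CPM per kb (SD, n = 3). The median core subunit had 117 CPM per kb at 0 h, 120.4 at 5 h and 116 at 12 h, and the median cap subunit 59.9, 63.1 and 57.8. Of the catalytic subunits, PSMB7 was highest at 0 h (140.2 ± 9.88 CPM per kb), followed by PSMB8 (102 ± 10.8), PSMB6 (88.0 ± 5.55), PSMB10 (47.5 ± 2.38), PSMB9 (40.1 ± 5.44) and PSMB5 (30.8 ± 0.950). In that order the lowest PSMB7 library was above the highest PSMB8 library, while PSMB8 and PSMB6 overlapped. The libraries of PSMB6, PSMB10, PSMB9 and PSMB5 did not overlap with their neighbours in the order, although those of PSMB10 and PSMB9 were nearly touching (lowest 44.9 and highest 44.6 CPM per kb). PSMB8 thus exceeded PSMB5 before activation, at 102 against 30.8 CPM per kb, and PSMB6 exceeded PSMB9. At 12 h PSMB9 had 65.6 ± 7.63 CPM per kb and PSMB10 43.4 ± 7.53, and PSME1 had moved to second place among the members with 200.05 ± 6.02, while PSME3 had 151 ± 4.62.

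Genes around the proteasome gave a setting for these values. In the class I and interferon list, 9 of 11 genes rose and 2 fell at 5 h against 0 h, and 8 rose and 0 fell at 12 h, which is 100% and 72.7% called beside 49.7% and 51.1% of all genes, with median log2 fold changes of 0.64 and 0.88, beside 0.00 and -0.00 over all genes. TAP1, the transporter gene beside PSMB9, had 100.2, 104 and 112 CPM at 0 h, 357, 447 and 428 CPM at 5 h and 413, 398 and 313 CPM at 12 h. It thus rose at 5 h by 1.96 ± 0.11 SE on the log2 scale (edgeR adjusted p = 8.18e-12), a comparison in which PSMB9 stood at 0.25 and was not called. IRF1, an interferon regulatory factor, rose at 5 h (1.17) and was lower at 12 h than at 5 h (-1.02, edgeR adjusted p = 2.92e-08). NLRC5, the transactivator of class I genes, rose at both times against 0 h (2.05 and 1.66), as did the class I chaperone tapasin, TAPBP (0.50 and 0.70). ERAP2, a peptide-trimming protease, fell at 5 h (-0.53) and was higher at 12 h than at 5 h (0.70). At 12 h against 5 h, 4 of the 11 genes were higher, 3 lower and 4 not called (63.6% called, beside 36.1% of all genes). TAP1 was not called there (-0.14). TAP2 was among the 4 higher genes, at log2 0.50 and 0.88 against 0 h and 0.38 at 12 h against 5 h (edgeR adjusted p = 0.00336). So was B2M, at 0.55 and 0.84 against 0 h and 0.29 at 12 h against 5 h (edgeR adjusted p = 0.0272).

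**Figure D5:**
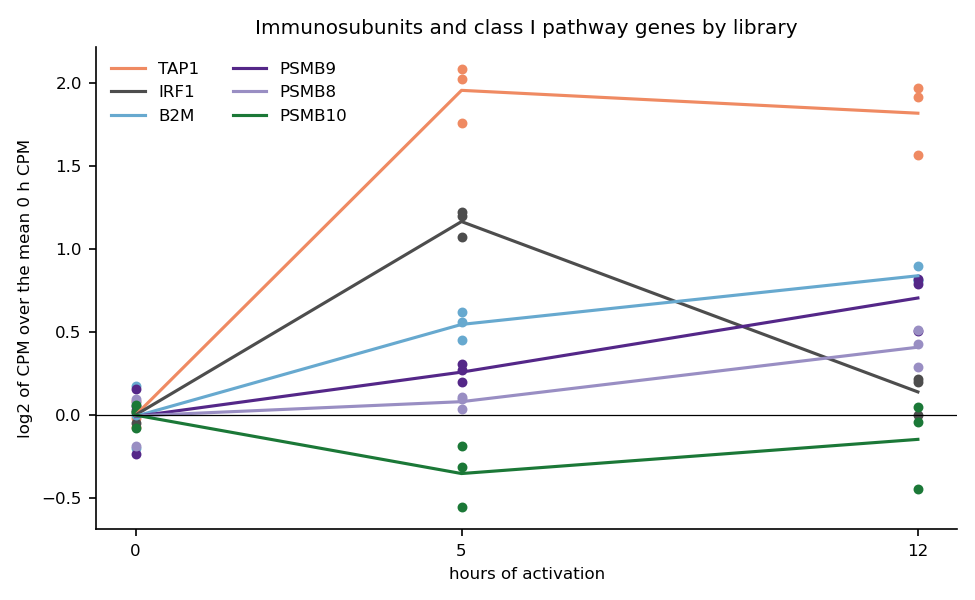
Log2 of each library's CPM over the mean 0 h CPM, against hours of activation, for 3 immunosubunits and 3 genes of the class I and interferon list; points are libraries and lines join the means. TAP1 and IRF1 are highest at 5 h on average, whereas PSMB8, PSMB9 and B2M are highest at 12 h and the later means of PSMB10 lie below its 0 h mean.

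Among 12 proteasome-bound and maturation factors, 5 rose and 1 fell at 5 h, and 2 rose and 1 fell at 12 h, both against 0 h (50% and 25% called, beside 49.7% and 51.1% of all genes). Of the 12 factors, 4 were lower at 12 h than at 5 h (33.3% called, beside 36.1% of all genes). ECPAS, a scaffold that binds core to cap, rose at 5 h to 84.2 ± 7.20 CPM, against 54.6 ± 0.738 CPM at 0 h (SD, n = 3 each), by 0.62 ± 0.10 SE on the log2 scale (edgeR adjusted p = 2.36e-05), and PAAF1, a binder of the cap ATPases, fell (log2 -0.55). AKIRIN2, which guides proteasomes into the nucleus, rose at both times against 0 h (log2 0.45 and 0.68), and the proteasome-bound ubiquitin ligase UBE3C fell at 12 h (-0.59). USP14, the deubiquitinase on the cap, and ZFAND5 rose at 5 h against 0 h and were lower at 12 h against 5 h (log2 -0.59 and -0.34).

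Among 8 genes that control proteasome transcription, 4 rose and 3 fell at 5 h, and 2 rose and 2 fell at 12 h, against 0 h (87.5% and 50% called, beside 49.7% and 51.1% of all genes). NFE2L2, which acts through antioxidant response elements, had 63.7, 59.3 and 59.8 CPM at 0 h, 181, 163 and 172 CPM at 5 h and 93.5, 85.2 and 95.8 CPM at 12 h. No times overlapped, and it rose by 1.496 ± 0.09 SE at 5 h against 0 h (edgeR adjusted p = 1.6e-11). NFE2L1, the factor that restores proteasome genes when proteasomes are inhibited, had 276, 255 and 291 CPM at 0 h, 158, 189.7 and 193 CPM at 5 h and 313, 349 and 289 CPM at 12 h. It was lowest at 5 h, with a log2 fold change of -0.60 ± 0.10 SE against 0 h, and lay 0.81 ± 0.10 higher at 12 h than at 5 h (edgeR adjusted p = 3.43e-05 and 2.8e-06). NGLY1, the glycanase that activates NFE2L1, rose at both times against 0 h (0.57 and 0.61), and NFYB, a subunit of the CCAAT-binding factor, fell at both times (-0.67 and -0.61).

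Of 9 shuttle and unfoldase genes, 3 rose and 1 fell at 5 h, and 2 rose and 1 fell at 12 h, against 0 h, or 44.4% and 33.3% called, which is below the 49.7% and 51.1% of all genes. The ubiquitin shuttle RAD23B rose at 5 h (log2 0.43) and was lower at 12 h against 5 h (-0.40), as was UBQLN1 (-0.26), while UBQLN4 was higher than at 0 h at both times (0.40 and 0.34). UFD1, a cofactor of the unfoldase VCP, fell at both times (-0.46 and -0.58). Of 5 ubiquitin genes, 1 rose and 0 fell at 5 h, and 2 rose and 2 fell at 12 h, against 0 h (20% and 80% called, beside 49.7% and 51.1% of all genes). RPS27A, which encodes ubiquitin fused to a ribosomal protein, rose at both times (0.44 and 0.57).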

How the data were processed

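mRNA was measured in 9 libraries, 3 each at 0 h, 5 h and 12 h. The count table deposited by the authors gives a whole number for each Ensembl gene, and the labels name the RealSeq library kit. cutadapt, RSEM, DESeq2 and GRCh38.p13 appear in the submitters' processing notes without role or version, and no source used here gives the aligner, annotation release or strand setting. A second table deposited by the authors gives log2 values which, as tested on the files, equal the log2 of 1 plus the count divided by a library factor. Symbols came from a symbol table joined by Ensembl gene.

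Counts were tested with edgeR 4.0.16 (R 4.3.3): TMM scaling, filterByExpr, the quasi-likelihood test over 9 libraries and Benjamini-Hochberg adjustment over 12036 genes at 0.05. Fold changes are later over earlier time and SE is the size of the log2 fold change over the root of F. The common biological coefficient of variation was 0.0887. The test was tried on simulated counts with few genes changed, at 5 h only, and the same dispersion for all genes. That setting is simpler than the data, so the trial does not check the calls given here. Within-library ratios of raw counts were compared with exact permutation tests (SciPy 1.17.1). Alternatives were DESeq2 1.42.0, limma 3.58.1, other scalings and filters, a replicate block and each library left out. Same-numbered libraries deviated with correlations of 0.028 to 0.23 between 5 h and 12 h, and of -0.17 to 0.064 between 0 h and the later times. Libraries of different number at 5 h and 12 h gave -0.28 to 0.15. With 3 libraries per time, these values cannot settle whether a number marks a shared culture or batch. The main fit did not pair libraries. Shared reads with pseudogenes or overlapping genes were not resolved.

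Named genes were the catalytic subunits, immunosubunits and activators, and in every other class the members with the highest and lowest change at 12 h and the largest at 5 h, against 0 h. In each surrounding list the called genes with the highest and lowest change were named. PSMA2, PSMA3, PSMA4, PSMA5, PSMA6, PSMA7, PSMC5, PSMD6, PSMD14, PSMG2, TAP1, TAP2, B2M and NLRC5 were named after their values were seen. Members and lists were chosen with earlier results of these data known. Some genes are not reported here.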

Additional observations from a re-analysis of the deposited data

Results flagged for a closer look

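The 16 members called at 12 h against 5 h (32.7% of those tested, beside 36.1% of all genes) are listed here by that difference. An effect here is the difference of a time from 0 h, in which activation and time in culture cannot be told apart. The 0 h libraries are common to both effects, so the test is edgeR's comparison of 12 h against 5 h (adjusted p under 0.05 over all genes). The same test selected the 16 members, so it adds nothing to those calls. The effect at 12 h minus that at 5 h, on the log2 scale, was positive for the immunosubunits PSMB8 (0.34) and PSMB9 (0.46), the lid subunit PSMD8 (0.26), the core chaperones PSMG3 (0.57) and PSMG4 (0.43), and PSMC3IP (0.72). It was negative for the ATPases PSMC2 (-0.44) and PSMC4 (-0.42), the lid subunits PSMD12 (-0.36) and PSMD6 (-0.38), the alpha subunit PSMA3 (-0.31), the cap chaperone PSMD5 (-0.47), the activators PSME3 (-0.74) and PSME4 (-0.40), and the core chaperones PSMG1 (-0.71) and PSMG2 (-0.32). As given above, the 12 h against 5 h calls of PSMA3, PSMD8, PSMD12, PSMG2, PSMG4 and PSMC3IP were lost in some of the other fits. Beyond leaving out each library in turn, groups of 3 libraries were not tested for single outlying values.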

How the results depend on the processing

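With library totals alone, 6 members were higher and 15 lower at 12 h against 0 h (10 and 8 with TMM); by construction this scaling shifted all genes, with a median of -0.12 at 5 h and -0.11 at 12 h. It turned the sign of uncalled log2 values at 5 h against 0 h for PSMB8 (-0.042), PSMB5 (-0.052), PSMB7 (-0.086), PSMB3 (-0.032), PSMB2 (-0.042), PSMC2 (-0.084), PSMD12 (-0.11), PSMF1 (-0.049), PSMA3 (-0.040) and PSMG2 (-0.053), and at 12 h against 0 h for PSMB7 (-0.0076), PSMB4 (-0.0032), PSMC6 (-0.020), PSMA4 (-0.037) and PSMD14 (-0.012). A filter of 50 counts gave PSMD12 -0.0056 at 5 h. Leaving out each library gave 6 to 9 higher and 6 to 9 lower members at 5 h against 0 h, 7 to 11 and 7 to 10 at 12 h against 0 h, and 3 to 11 and 7 to 10 at 12 h against 5 h. The sign of uncalled values then also turned at 5 h against 0 h for PSMB8 (-0.014 to 0.12), PSMB6 (-0.18 to 0.015), PSMB7 (-0.022 to 0.079), PSMC2 (-0.024 to 0.087), PSMD12 (-0.082 to 0.078), PSMG4 (-0.17 to 0.085), PSMG2 (-0.018 to 0.12) and the PSMB8 to PSMB5 ratio (-0.069 to 0.083). It turned at 12 h against 0 h for PSMC4 (-0.11 to 0.049), PSMF1 (-0.043 to 0.026) and PSMA4 (-0.0074 to 0.14), and at 12 h against 5 h for PSMA1 (-0.089 to 0.048), PSMB4 (-0.070 to 0.011), PSMC6 (-0.16 to 0.018), PSMA7 (-0.016 to 0.095) and PSMC5 (-0.037 to 0.067); the cause was not tested. The replicate block gave 9 higher and 9 lower, 10 and 9, and 6 and 10 members in the 3 comparisons; among the members given with values it changed 1 call, PSMG3 at 12 h against 0 h (-0.33, edgeR adjusted p = 0.0224). Among the members given with values, RLE size factors changed no call, and DESeq2 and limma on the deposited log2 values each lost 1, PSMG2 at 12 h against 5 h, which left 9 lower members there. The summed core and cap levels were higher at 5 h than at 0 h with TMM and lower with library totals alone. PSMA8, PSMC3IP and PSMB11 had few counts, which limits their precision.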
